A study of Mus musculus with 20 samples.

Results

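Liver adenomas that had grown under phenobarbital were compared with non-tumour liver from mice given the same diet. The comparison used 10 of the 20 samples of the series, chosen by their labels: 5 adenomas (APCko_Adenoma 1 to 5, here adenoma 1 to 5) and 5 samples of non-tumour liver (PB_NT 1 to 5, here liver 1 to 5), which the labels name as the control group of the adenomas. All samples of both groups came from male C57BL/6 mice with a conditional APCko genotype, a knockout allele of Apc that is switched on by a trigger. Per the sample protocols, the mice got 0.75 mg of tamoxifen once at 6 weeks of age and, from 1 week later, chow with 0.05% phenobarbital for 9 months. The series' design text instead names an initiating dose of the carcinogen DEN, and which of these holds was not settled. The groups therefore share genotype, trigger and drug and differ in being tumour or not. The promoter that drives the recombinase and the deleted exons are not given in the sources used here. The labels do not say whether samples came from separate mice or whether an adenoma and a liver sample share a mouse, so p-values describe only how these samples scatter, which may be technical. Every animal carried the allele, and liver without it was not analysed here.

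As background, Apc is a scaffold of the complex that marks beta-catenin for destruction, and losing it leaves Wnt target genes on. In healthy liver, Wnt signalling is strong only around the central vein, where hepatocytes make glutamine, while hepatocytes near the portal vein make urea and break down amino acids. Phenobarbital activates the nuclear receptor CAR, which induces cytochromes P450 of the 2b and 2c families, and rodent tumours that arise under the drug often carry active beta-catenin.

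Expression was measured on Affymetrix arrays, and all levels and differences below are on the authors' log2 scale, so that 1 unit is a doubling. A gene was read through 1 probe set, and a difference is the adenoma mean minus the liver mean with its standard error (SE). A gene is said to have risen or fallen when its adjusted p was under 0.05 in limma's moderated test, adjusted by the Benjamini-Hochberg method over 34945 probe sets. Levels of different genes are not comparable, since each probe set has its own brightness.

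The groups separated completely on the first principal component of the 18193 genes, which held 55.1% of the variance. The adenomas also differed among themselves. On the second component (14.1% of the variance), adenomas 1, 3 and 5 lay at 28.2, 24.9 and 17.01, whereas adenomas 2 and 4 lay at -35.3 and -33.2. The correlation across genes between any pair of adenomas was 0.970 to 0.986, against 0.994 to 0.995 among liver samples. Array medians ran from 5.52 to 5.597. The means of 4 hepatocyte markers (Alb, Ttr, Apoa1 and Hnf4a) were 13.9 to 14.1 in adenomas and 14.1 on liver arrays, so the tissue label fitted the data. Results that rest on adenomas 2 and 4 are given with and without them. That alternative was chosen after the data were seen, and the same values had set those tumours apart. Its p-values and counts are therefore descriptions and not tests.

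**Figure D1:**
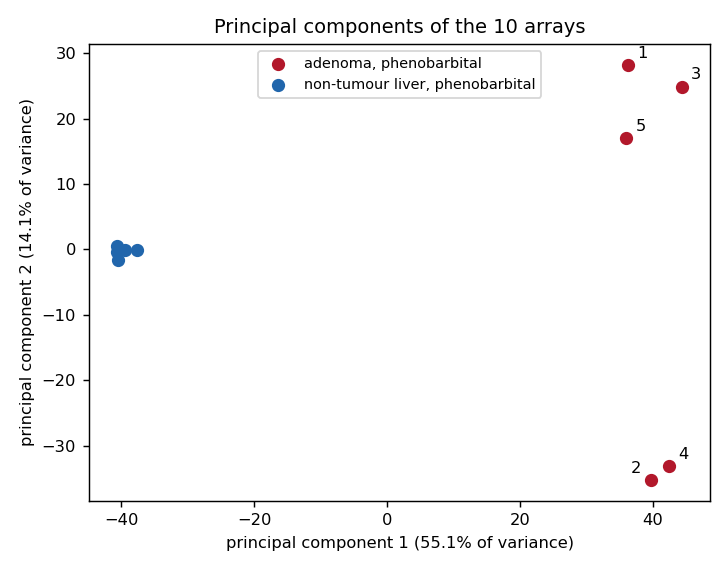
Position of each of the 10 arrays on the first and second principal components of 18193 genes (log2 values), with adenomas numbered by replicate. All 5 adenomas lie to the right of the liver samples, and adenomas 2 and 4 lie apart from adenomas 1, 3 and 5 on the second axis.

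In total 4213 genes differed, 23.2% of those tested: 2264 were higher (12.4%) and 1949 lower (10.7%) in adenomas. Of these, 1137 differed at least 2-fold (6.25% of genes), 689 upward and 448 downward. In 3170 genes, or 17.4%, the call came with groups that did not overlap on any array. The median difference over all genes was -0.03. Gene lists below are set against these shares.

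Nupr1 and Afp rose most. Nupr1, a small stress-induced chromatin protein, read 9.95, 11.53, 10.49, 12.22 and 9.43 in adenomas 1 to 5 and 5.52, 5.04, 5.08, 5.15 and 5.38 in liver samples 1 to 5. Every adenoma lay far above every liver sample, and the difference was 5.49 (SE 0.43, adjusted p = 6.1e-06). A second Nupr1 probe set rose by 4.45, and the dim liver levels leave the fold uncertain. Afp, the alpha-fetoprotein of fetal liver and a clinical tumour marker, read 8.56, 11.10, 10.74, 10.59 and 11.42 against 4.63 to 5.53 in liver. It rose by 5.36 (SE 0.44, adjusted p = 8.4e-06), with adenoma 1 the lowest tumour. The 4 other Afp probe sets differed by 0.26 to 3.81, and 3 of them passed the test.

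The next largest rises were of the sulfotransferase gene Sult2a2 (4.93), the tissue plasminogen activator gene Plat (4.86), Igfbp1, which binds insulin-like growth factors (4.74), the short-chain collagen gene Col8a1 (4.67) and Cpe, a prohormone-processing carboxypeptidase (4.52). The others among the 15 largest were the stearoyl-CoA desaturase gene Scd2 (4.50), Calml4 (4.49), the serine synthesis gene Psat1 (4.48), Gipc2 (4.46), Rragd, a GTPase that relays amino acid supply to mTORC1 (4.32), Mogat2, which makes diacylglycerol (4.24), monoamine oxidase A, Maoa (4.23), and carbonic anhydrase 2, Car2 (3.99). Adjusted p ran from 2.9e-09 for Car2 to 0.018 for Sult2a2. Car2 was also the most even: adenomas read 11.36, 11.37, 11.58, 11.74 and 11.47 and liver samples 7.58, 7.51, 7.83, 7.46 and 7.21. For Cpe the probe set used is 1 of a pair, and the other one fell by 1.21 (adjusted p = 2.6e-05), so its direction is uncertain. Other probe sets did not pass the test for Rragd (0.05 and 0.75) and Plat (0.47). For Col8a1 another one rose by 3.42 and a dim one did not pass (0.11). The other probe sets of Scd2, Psat1 and Maoa rose as well.

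The largest fall was of Sult3a1, a sulfotransferase, from 11.88, 11.002, 11.36, 10.91 and 9.90 in liver samples 1 to 5 to 3.60, 4.11, 3.79, 5.08 and 5.87 in adenomas 1 to 5. The groups did not overlap, and the difference was -6.52 (SE 0.45, adjusted p = 2.0e-06). Hal, histidine ammonia-lyase, the first step of histidine breakdown, fell by 6.47 (SE 0.28, adjusted p = 6.0e-08). It read 3.99, 4.20, 5.67, 5.24 and 5.32 in adenomas and 11.21 to 11.45 in liver. Amdhd1, a later enzyme of the same pathway, fell by 4.83.

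The other large falls took in the major urinary proteins Mup10 (-6.01) and Mup3 (-5.21), the periportal P450 gene Cyp2f2 (-5.93), the arginase gene Arg1 (-5.81) and the fatty acid elongase gene Elovl3 (-5.74). They went on with hepcidin, Hamp, the hormone that limits iron uptake (-5.18), Wfdc21 (-5.03), the asparaginase gene Aspg (-4.76), Cnmd (-4.61), Dct (-4.52), the CAR-responsive P450 gene Cyp2c65 (-4.51) and Olfm3 (-4.47). Mup genes are near-identical copies, and the Mup3 probe set can bind several of them, so single Mup values are uncertain. Mup3 read 7.12, 8.15, 12.18, 7.27 and 11.45 in adenomas, while liver samples read 14.38 to 14.49. Adenomas 3 and 5 thus kept more of this signal than the other tumours.

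**Figure D2:**
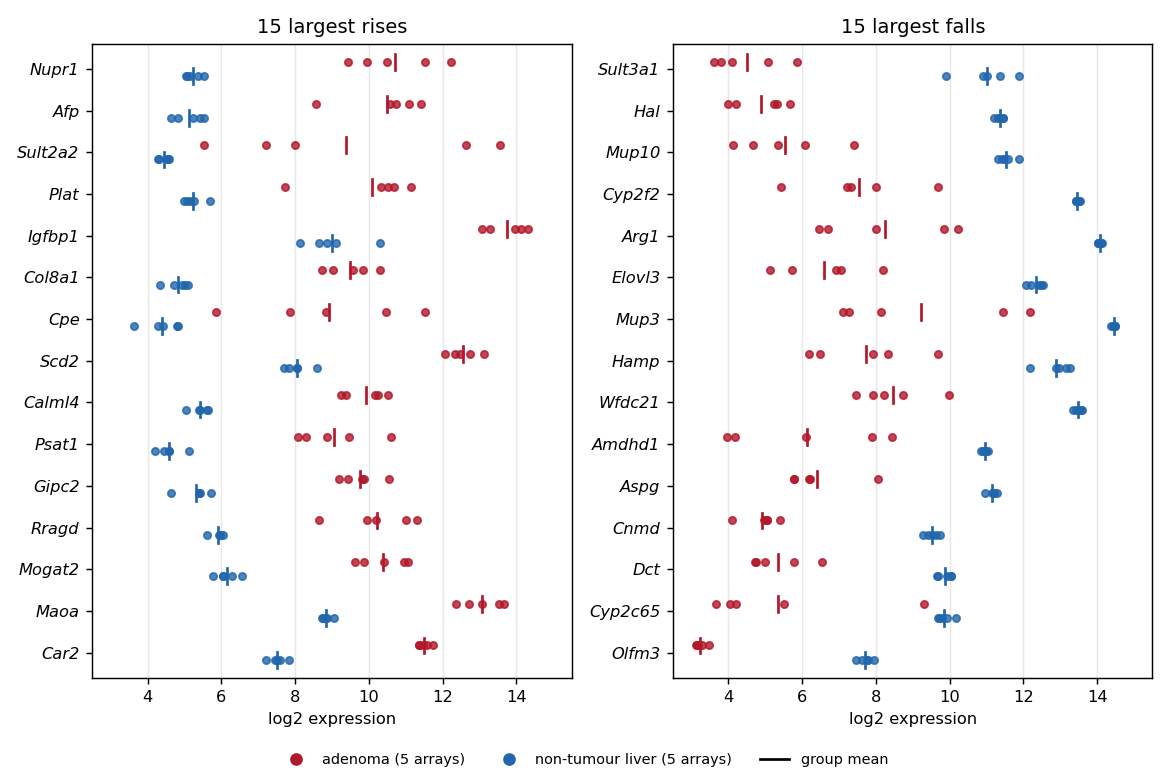
Level (log2) of the 15 genes with the largest rises and the 15 with the largest falls among genes past the test whose groups did not overlap, 1 point per array and a bar at each group mean. Nupr1 stood at 9.43 to 12.22 in adenomas and at 5.04 to 5.52 in liver, and Sult2a2 has the largest SD among adenomas (3.51), followed by Mup3 (2.41).

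The targeted gene was then examined. Apc read 8.96, 9.25, 9.09, 9.21 and 8.79 in adenomas and 8.71, 8.56, 8.43, 8.57 and 8.43 in liver. This was a rise of 0.52 (SE 0.11, adjusted p = 0.0053), without overlap. It came from the brightest of 4 probe sets, the other 3 differed by -0.02 to 0.09, and averaging all 4 gave 0.15 (adjusted p = 0.24). Where the probe sets lie relative to the deleted part is not known, so they check nothing about the knockout. Ctnnb1, which encodes beta-catenin itself, differed by 0.13 (95% interval -0.14 to 0.40, adjusted p = 0.52).

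Part of the genes that Wnt signalling switches on, many of which feed back to restrain it, were raised in the adenomas. The list used also holds the pathway genes Apc, Ctnnb1 and Tcf7l2. Of 27 genes measured on this list, 13 rose, Apc among them, and 1 fell (48.1% and 3.7%), and the median difference was 0.58. The other 13 did not pass the test, Ctnnb1 and several feedback and target genes among them. Axin2, a scaffold of the beta-catenin destruction complex and a general Wnt target, read 10.07, 8.66, 9.38, 8.21 and 9.61 in adenomas and 6.61 to 6.97 in liver. It rose by 2.39 (SE 0.28, adjusted p = 1.3e-04), and every adenoma exceeded every liver sample. Nkd1, an inhibitor that binds Dishevelled, rose most, by 3.04 (SE 0.46, adjusted p = 6.8e-04), from 5.52 to 6.60 in liver to 10.22, 8.63, 9.63, 7.35 and 9.62.

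Adenomas 2 and 4 were the lowest tumours for both Axin2 and Nkd1. Without them the differences were 2.89 and 3.77. Notum, an enzyme that inactivates Wnt proteins, rose by 1.45, and the ubiquitin ligase genes Znrf3 and Rnf43, which remove Wnt receptors, by 1.41 and 1.12. The R-spondin receptor gene Lgr5 rose by 1.71, the transcription factor genes Sp5 and Tbx3 by 2.04 and 1.35, and the surface glycoprotein gene Cd44 by 2.20. Adjusted p for these 7 genes was between 8.1e-07 (Cd44) and 0.012 (Rnf43). Ccnd1, the cyclin D1 gene, rose by 1.98 (SE 0.20, adjusted p = 4.7e-05), with adenoma 2 highest at 10.91, and Myc rose by 1.23 (SE 0.23, adjusted p = 0.0027). Tcf7l2, the gene of a DNA-binding partner of beta-catenin, was the gene that fell (-0.48, SE 0.09, adjusted p = 0.0030).

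Lect2, which encodes a secreted hepatocyte protein, read 13.05, 12.42, 13.18, 12.58 and 13.11 in adenomas and 12.04 to 12.53 in liver. Adenoma 2 overlapped the liver range. The rise was 0.58 (SE 0.16, adjusted p = 0.021), the call ended without liver 5 (0.52, adjusted p = 0.058), and without adenomas 2 and 4 the difference was 0.83.

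To show the DNA beside these values, the 300 bases from 250 before to 50 after each gene's start (RefSeq, GRCm38.p6) were searched for ATCAAAG, the core that TCF/LEF factors bind, on both strands, where the other strand reads CTTTGAT. It occurred in 500 of 14452 measured genes with a promoter in the table (3.46%) and in 3 of 16 genes of the Wnt list, Sp5, Lect2 and Tnfrsf19. The stretches around the motif, which is in capitals, are shown for the pair of these genes that rose, each on the gene's own strand. The Sp5 stretch is chr2:70474789-70474855 on the plus strand and the Lect2 stretch chr13:56548539-56548600 on the minus strand.
Sp5: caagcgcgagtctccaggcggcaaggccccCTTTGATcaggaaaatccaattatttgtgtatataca
Lect2: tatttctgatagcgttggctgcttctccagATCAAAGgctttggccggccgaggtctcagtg
The first capital lies 104 bases before the start of Sp5 and 32 bases before that of Lect2. A match is a description of the letters only.

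Pericentral genes rose with the Wnt targets. Of 24 measured, 14 rose and 1 fell (58.3% and 4.2%), with a median difference of 0.92. Glul, glutamine synthetase, the classical marker of hepatocytes at the central vein, read 14.35, 14.36, 14.27, 14.34 and 14.32 in adenomas and 12.97, 13.18, 13.07, 13.23 and 12.99 in liver. All adenomas (SD 0.04) were above liver, and the difference was 1.24 (SE 0.08, adjusted p = 2.0e-06). These levels lie close to the highest on the adenoma arrays (14.88 to 14.94), where differences and spread can be compressed, and a second, dimmer Glul probe set rose by 2.54. Slc1a2, a glutamate transporter of pericentral cells, rose by 3.20 (SE 0.27), the ammonium channel gene Rhbg by 2.47 (SE 0.17) and the ornithine aminotransferase gene Oat by 0.65 (SE 0.10). Their adjusted p was 1.2e-05, 1.9e-06 and 0.0010.

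Other pericentral genes did not pass the test. Cyp2e1, the ethanol-oxidising P450, differed by 0.03 (95% interval -0.18 to 0.24, adjusted p = 0.86) and Cyp1a2 by 0.01 (-0.55 to 0.58, adjusted p = 0.98). Cyp1a2 ran from 12.53 in adenoma 3 to 14.28 in adenoma 5, while liver samples lay within 13.15 to 13.41. Cyp7a1, which starts the main route from cholesterol to bile acids, rose by 0.91 (SE 0.24, adjusted p = 0.020), and the call ended without liver 4 (0.76, adjusted p = 0.0501).

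The genes for taking up and making glutamine share members with the pericentral list. Of 10 measured, 7 rose and 2 fell, with a median of 0.94. Slc1a5 and Slc1a4, neutral amino acid exchangers, rose by 3.02 (SE 0.28, adjusted p = 2.2e-05) and 2.94 (SE 0.55, adjusted p = 0.0029). Slc1a4 ran from 8.72 in adenoma 4 to 12.44 in adenoma 5, against 7.08 to 7.72 in liver. Slc38a3, the main hepatocyte glutamine transporter of the system N type, fell by 1.55, and Slc38a4 by 0.99.

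Periportal genes fell. Of 23 measured, none rose and 16 fell (69.6%), with a median of -2.17, the lowest of the 43 lists. Cyp2f2 read 5.43, 7.34, 7.21, 7.99 and 9.67 in adenomas and 13.42 to 13.52 in liver, a fall of 5.93 (SE 0.56, adjusted p = 2.5e-05). Arg1, the last step of the urea cycle, read 6.71, 6.47, 10.23, 9.85 and 8.003 against 14.01 to 14.13, a fall of 5.81 (SE 0.64, adjusted p = 7.3e-05). No adenoma reached the liver range for either gene. Gldc, the glycine-cleaving decarboxylase, fell by 4.42, Etnppl, which breaks down phosphoethanolamine, by 4.28 and Pck1, the entry enzyme of gluconeogenesis, by 3.63.

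The loss was uneven between tumours. Cps1, which fixes ammonia in the first step of the urea cycle, read 7.53, 10.24, 9.56, 13.37 and 8.35 in adenomas and 13.81 to 14.01 in liver. Adenoma 4 lay just below the liver range. The fall was 4.12 (SE 0.82, adjusted p = 0.0042), and 5.45 without adenomas 2 and 4. Ass1, which makes argininosuccinate, fell by 1.42 (SE 0.26, adjusted p = 0.0024) and was likewise highest in adenoma 4 (8.12, against 6.43 to 6.83 in the other adenomas and 8.29 to 8.44 in liver). Otc, ornithine transcarbamylase, was even across tumours, at 10.91 to 11.19 against 13.24 to 13.57 (-2.38, SE 0.09, adjusted p = 2.4e-08).

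Of 24 genes for the urea cycle and amino acid breakdown, which overlap with the periportal list, 18 fell and none rose (75%), with a median of -1.31. Besides Hal and Amdhd1, the histidine pathway genes Uroc1 and Ftcd fell, by 3.45 and 3.62. Smaller falls were those of Kmo (-1.19) and Haao (-1.36), enzymes of tryptophan breakdown, and of Aass (-1.44), which starts lysine breakdown.

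**Figure D3:**
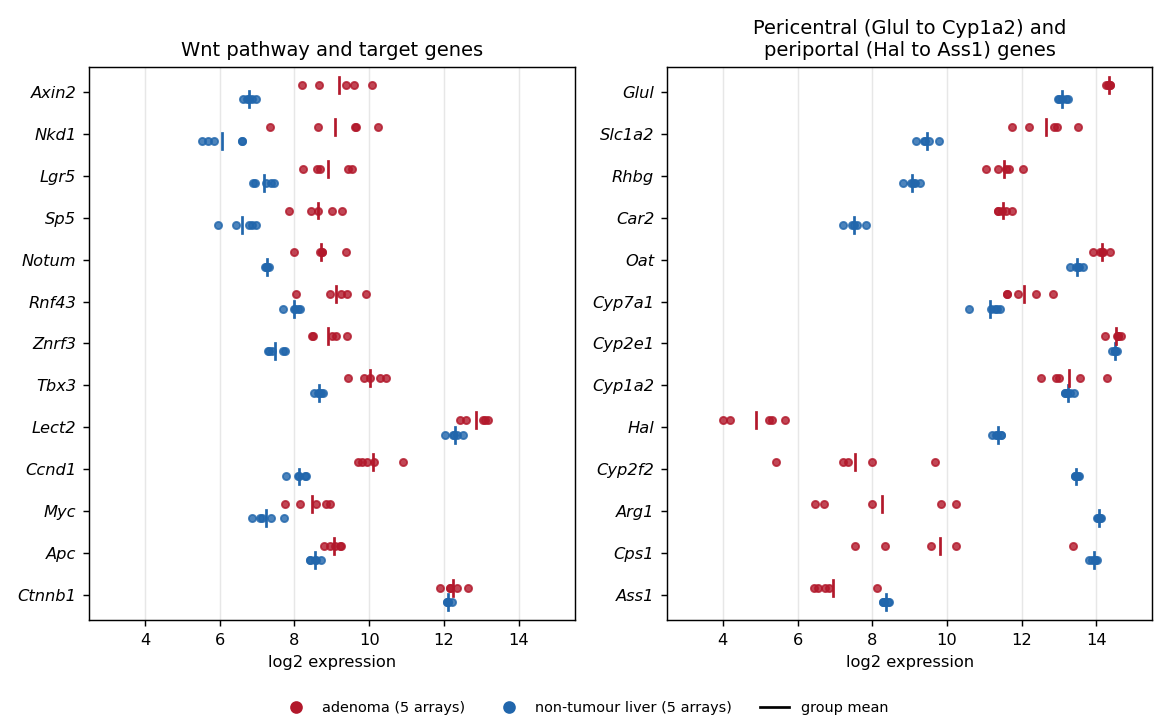
Level (log2) of Wnt pathway genes, left, and of pericentral and periportal genes, right, 1 point per array and a bar at each group mean. Glul stands at 14.27 to 14.36 in adenomas and 12.97 to 13.23 in liver, Hal at 3.99 to 5.67 against 11.21 to 11.45, and the points of Cyp2e1 and Cyp1a2 overlap.

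Levels of drug-responsive P450 genes were not uniform among tumours. Both groups had the drug, so no response to it was measured. Of 20 P450 and related genes targeted by CAR and its relative PXR, none rose and 9 fell (45%), with a median of -0.78. Cyp2b10, the classical CAR target, read 8.21, 13.43, 11.56, 12.92 and 10.13 in adenomas and 13.11, 13.14, 13.33, 13.13 and 13.15 in liver. Adenoma 2 lay above all liver samples, adenoma 4 just below them, and adenomas 1, 3 and 5 well below. The difference of -1.93 (SE 0.78, adjusted p = 0.10) did not pass the test, and without adenomas 2 and 4 it was -3.21 (adjusted p = 0.0018). That second p-value was computed after the highest tumours were left out, so it is not a test. Cyp2b genes are close copies whose probe sets can take up each other's signal.

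Nr1i3, the gene of CAR, was likewise highest in adenomas 2 and 4, with 8.003, 9.99, 7.83, 9.34 and 8.69 in adenomas and 9.48 to 9.997 in liver. It differed by -0.85 (SE 0.35, adjusted p = 0.10), and by -1.45 without adenomas 2 and 4 (adjusted p = 4.0e-04). In that fit of 8 arrays, which was chosen after the data were seen and is a description only, 14 of the 20 genes fell. Cyp2b13 fell by 4.27 (SE 0.65, adjusted p = 7.2e-04) with adenoma 2 again the highest tumour (9.75, against 5.19 to 7.87 in the others and 10.93 to 11.88 in liver). Cyp2c65 read 3.67, 9.30, 5.51, 4.03 and 4.21 against 9.68 to 10.17, so that adenoma 2 alone came close to liver. Its fall was 4.51 (SE 0.85, adjusted p = 0.0029).

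Cyp2b9 read 5.92, 9.77, 8.52, 6.10 and 11.76 in adenomas and 10.82 to 11.63 in liver. Adenoma 5 exceeded all liver samples. The fall of 2.89 (SE 0.91, adjusted p = 0.043) lost its call without any 1 of 8 arrays (liver 1 to 5 and adenomas 1, 3 and 4, adjusted p = 0.070 to 0.088). Cyp3a11, a main PXR target, differed by -0.17 (95% interval -0.46 to 0.11, adjusted p = 0.39). Alas1, which supplies haem to P450 enzymes, fell by 0.95 (SE 0.24, adjusted p = 0.014).

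Among 33 genes of conjugating enzymes and drug transport, 3 rose and 11 fell (median -0.19). Ugt2b1, a glucuronosyltransferase gene, fell by 2.69, and Gstt3, a glutathione transferase gene, by 2.57. Abcb1a, which encodes an efflux pump, rose by 2.12 (SE 0.31, adjusted p = 6.0e-04). It read 8.40, 9.84, 8.34, 9.66 and 8.02 against 6.58 to 6.82 in liver, with adenomas 2 and 4 highest.

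Of 16 targets of NRF2, the factor that answers oxidative stress, 5 rose and 1 fell (median 0.74). Srxn1, which repairs oxidised peroxiredoxins, read 10.73, 11.13, 11.66, 10.91 and 13.19 against 9.55 to 9.80, and Nqo1, a quinone reductase, 9.76, 9.34, 10.29, 9.92 and 11.30 against 7.96 to 8.85. Both rose (1.86, SE 0.37, adjusted p = 0.0041, and 1.70, SE 0.30, adjusted p = 0.0021), and adenoma 5 was highest for both. The list's median by array was likewise highest in adenoma 5 (1.75 above liver) and ran from 0.13 to 0.93 in the other tumours. The count of rises was 8 without adenoma 2, and 9 without adenomas 2 and 4.

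Stress genes of another kind also rose. The integrated stress response slows translation and, through the factor ATF4, switches on genes for amino acid supply and metabolic hormones. Of 27 genes measured, 18 rose and 2 fell (66.7% and 7.4%), with a median of 1.23. Fgf21, a hormone that the liver releases on starvation and stress, read 9.86, 10.96, 11.42, 10.73 and 10.33 in adenomas and 6.51 to 6.999 in liver. It rose by 3.94 (SE 0.24, adjusted p = 8.5e-07), or 15.3-fold, without overlap. Atf3, a stress-induced transcription factor gene, rose by 2.75 (SE 0.25, adjusted p = 1.9e-05) and Vldlr, a lipoprotein receptor gene induced by ATF4, by 2.81 (SE 0.30, adjusted p = 6.3e-05). Atf4 itself rose by 0.57 (SE 0.13, adjusted p = 0.010), and by 0.38 without adenomas 2 and 4.

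The amino acid transporter genes Slc3a2 and Slc7a5, whose products form 1 exchanger, rose by 1.98 and 1.80. Ddit3, the gene of CHOP, rose by 1.38 and Trib3, a pseudokinase gene, by 1.75. Trib3 read 8.36, 10.10, 8.53, 9.74 and 8.34 against 6.77 to 7.72 in liver. Asns, asparagine synthetase, read 7.98, 10.80, 9.47, 11.14 and 7.75 against 7.01 to 8.25. Adenomas 2 and 4 were again highest for Trib3 and Asns, and adenomas 1 and 5 overlapped liver for Asns. Without adenomas 2 and 4 the Trib3 difference was 1.15. The Asns rise of 2.07 (SE 0.60, adjusted p = 0.030) lost its call without any 1 of 7 arrays (liver 1, 2, 3 and 5 and adenomas 2, 3 and 4, adjusted p = 0.054 to 0.071), and was 1.04 (adjusted p = 0.084) without both adenomas.

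ATF4 and its C/EBP partners bind composite sites that contain TGATGNAA, or TTNCATCA on the other strand. This motif was found in 468 of 14452 promoters of 300 bases (3.24%) and in 8 of 23 promoters of the list. It lay upstream of the start in 7 genes, of which Nupr1, Fgf21, Atf3, Vldlr and Asns rose and none fell. Of the whole list, whatever its promoters held, 18 of 27 genes rose (66.7%), which is a similar share. The remaining pair with the motif was Chac1 (0.49, adjusted p = 0.11) and Slc7a11 (2.11, adjusted p = 0.064). The stretches of the 5 genes that rose are shown to set the motif beside genes that rose, with the motif in capitals and each on its gene's strand. On GRCm38.p6 they lie at chr7:126625543-126625610 (Nupr1, minus), chr7:45615592-45615659 (Fgf21, minus), chr1:191183406-191183473 (Atf3, minus), chr19:27216790-27216857 (Vldlr, plus) and chr6:7693210-7693262 (Asns, minus).
Nupr1: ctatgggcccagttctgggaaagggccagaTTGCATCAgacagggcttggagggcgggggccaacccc
Fgf21: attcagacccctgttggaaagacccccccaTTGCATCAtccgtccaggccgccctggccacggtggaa
Atf3: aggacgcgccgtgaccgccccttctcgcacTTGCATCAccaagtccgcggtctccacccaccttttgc
Vldlr: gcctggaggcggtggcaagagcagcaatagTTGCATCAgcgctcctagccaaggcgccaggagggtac
Asns: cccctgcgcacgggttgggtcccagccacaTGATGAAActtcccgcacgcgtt
The Nupr1, Fgf21, Atf3 and Vldlr stretches all hold the letters TTGCATCA, the reverse orientation of the motif, and Asns holds it in the forward orientation. The first capital lies 110 bases before the start of Nupr1 and of Atf3, 139 before Fgf21, 200 before Vldlr and 23 before Asns.

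Serine and one-carbon genes split. Of 24 measured, 5 rose and 15 fell (20.8% and 62.5%), with a median of -0.74. The serine synthesis genes Psat1 and Psph rose by 4.48 and 1.71, and the mitochondrial folate genes Mthfd2 and Mthfd1l by 1.27 and 1.19. Neither step rose throughout. Another serine synthesis gene did not pass the test (0.42, adjusted p = 0.23), and another mitochondrial folate gene fell (-0.59, adjusted p = 0.016). Psat1 was highest in adenoma 4 (10.61), while the other adenomas read 8.07 to 9.46 and liver 4.19 to 5.12. The genes that fell were mostly those of methyl group disposal and the methionine cycle in hepatocytes, among them Gnmt (-1.65), which uses up methyl groups on glycine, Bhmt (-0.85) and Mat1a (-0.89), and the cytosolic folate gene Aldh1l1 (-1.51). Cth, which makes cysteine and is also on the stress list, fell by 1.01 (SE 0.19, adjusted p = 0.0029).

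ER chaperone and folding genes did not rise with the stress list. Of 20 measured, none rose and 8 fell, with a median of -0.20. Hspa5, the main ER chaperone gene, differed by 0.06 (95% interval -0.19 to 0.32, adjusted p = 0.74), and Hyou1, another ER chaperone gene, fell by 0.66 (SE 0.15, adjusted p = 0.010). The count of 8 went to 5 without liver 1, 4 without liver 2 and 4 without liver 4.

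Genes of dividing cells rose. Of 28 cell cycle and mitosis genes, 26 rose and none fell (92.9%), with a median of 1.57, the highest of the 43 lists. Mki67, the gene of the proliferation marker Ki-67, read 8.82, 8.48, 9.27, 7.62 and 8.66 in adenomas and 5.69, 5.56, 6.27, 5.23 and 5.47 in liver. The groups did not overlap, and the rise was 2.93 (SE 0.27, adjusted p = 2.2e-05). Ube2c, a ubiquitin-conjugating enzyme of the mitotic exit, rose by 2.97 and Top2a, which untangles chromosomes, by 2.63, in its brightest of 3 probe sets (the other pair differed by 0.01 and 0.17). Adenoma 4 had the lowest and adenoma 3 the highest list median, 0.94 and 2.38 above liver.

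Of 31 DNA replication genes, 21 rose and 1 fell (67.7% and 3.2%), with a median of 0.83. Cdt1, which licenses replication origins, rose by 2.13 (SE 0.12, adjusted p = 4.1e-07) and Mcm6, a helicase subunit, by 2.05. The exception was Mcm10, which read 8.42, 9.47, 8.48, 7.05 and 8.18 against 10.19 to 10.99 in liver and fell by 2.18 (SE 0.34, adjusted p = 8.8e-04). That was its brightest probe set. The other pair, much dimmer, differed by -0.61 (adjusted p = 0.066) and -0.22 (adjusted p = 0.19), so the Mcm10 fall rests on 1 probe set. Cdkn1a, the gene of the cell cycle inhibitor p21, rose by 2.38 (SE 0.26, adjusted p = 7.8e-05). It is also a target of p53, and of 21 such targets 7 rose and 3 fell, with a median of 0.20. Of 12 D cyclin and CDK inhibitor genes 7 rose and none fell, with a median of 0.78. Mdm2, a standard p53 target, differed by 0.20 (95% interval -0.18 to 0.59, adjusted p = 0.46). Without adenomas 2 and 4, a choice made after the data were seen, 11 p53 targets rose, and Mdm2 by 0.48 (adjusted p = 0.033).

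Markers of fetal liver and liver tumours rose in 13 of 30 genes, and none fell (43.3%), with a median of 1.44. The other 17 did not pass the test, Igf2 and several more fetal genes among them. Of those that rose, Aldoa, Pkm, Ccnd1, Cd24a, Sox4, Scd2 and Lcn2 are also on other lists, so the count is not one of fetal genes alone. Besides Afp and Scd2, Ly6d, a lipid-anchored surface protein gene, rose by 3.98 (SE 0.37, adjusted p = 2.4e-05), from 8.19 to 9.24 in liver to 11.61, 12.16, 13.68, 13.33 and 13.33. Bex1 rose by 3.54 (SE 0.63, adjusted p = 0.0021), with 6.06, 4.65, 8.84, 8.40 and 6.93 against 3.21 to 3.65, and Golm1, a Golgi protein gene, by 2.56. Gpc3, glypican 3, a diagnostic marker of liver cancer, read 4.97, 7.62, 8.54, 9.98 and 8.50 against 5.01 to 5.86. Adenoma 1 lay just below the liver range and the other adenomas above it. The Gpc3 rise of 2.42 (SE 0.69, adjusted p = 0.028) lost its call without any 1 of 6 arrays (liver 1 to 4 and adenomas 3 and 5, adjusted p = 0.051 to 0.067), and was 1.83 (adjusted p = 0.080) without adenomas 2 and 4. Igf2, the fetal growth factor gene, reached 9.91 in adenoma 5 but 5.98 to 7.02 in the other adenomas, against 5.98 to 7.16 in liver, and did not pass the test (0.82, SE 0.61, adjusted p = 0.39).

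Most core hepatocyte genes did not pass the test. Of 30 genes of secreted proteins and hepatocyte identity, 1 rose and 9 fell, with a median of -0.23. Alb, albumin, differed by -0.01 (95% interval -0.17 to 0.15) and Hnf4a, a master regulator of hepatocytes, by 0.03 (-0.17 to 0.23), with adjusted p = 0.94 and 0.83. Alb was the brightest probe set on every adenoma array, at the top of the measured range, where a difference can be compressed. Onecut1 and Cebpa, which encode liver transcription factors, fell by 2.12 (SE 0.36, adjusted p = 0.0015) and 1.09 (SE 0.15, adjusted p = 3.3e-04). The count of 9 was 5 without liver 2, and 4 with all 20 arrays in the fit.

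Genes with a male bias in mouse liver, which the pulsed release of growth hormone maintains, fell in 9 of 15 (60.0%), 1 rose and the median was -2.03. Elovl3 read 6.91, 5.14, 8.19, 5.73 and 7.05 against 12.08 to 12.54 in liver. It fell by 5.74 (SE 0.45, adjusted p = 6.1e-06). Igf1, a growth hormone target of the liver, fell by 2.17 (SE 0.38, adjusted p = 0.0019), and adenoma 2 was lowest at 8.69. Of 16 genes of the IGF axis 4 rose and 2 fell (4 without adenomas 2 and 4), with a median of -0.01. Of 19 female-biased genes 3 rose (5 without adenoma 5) and 5 fell, with a median of -0.02. Those that fell included Sult3a1, Cyp2b13 and Cyp2b9, which are also drug-responsive, and Cyp17a1, a steroid hydroxylase (-3.30, SE 0.63, adjusted p = 0.0030).

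Lipid genes moved in both directions. Of 28 genes of fatty acid synthesis and storage, 3 rose and 12 fell, with a median of -0.33. The shares are 10.7% and 42.9%, against 12.4% and 10.7% of all genes, so rises were no more frequent than elsewhere. Cidea, a lipid droplet protein gene, fell by 4.47 (SE 0.35, adjusted p = 5.5e-06), from 8.70 to 10.71 in liver to 5.35, 4.42, 5.57, 4.69 and 4.60. Thrsp, a lipogenic regulator, fell from 13.34 to 13.87 in liver to 10.25 to 10.61 in adenomas (-3.17, SE 0.12, adjusted p = 1.3e-08), and Srebf1, the main lipogenic transcription factor gene, by 1.85 (SE 0.13, adjusted p = 2.7e-06). Scd2 and Lpl went the other way. Scd2, the desaturase isoform that adult liver makes little of, read 12.74, 13.13, 12.08, 12.48 and 12.34 against 7.69 to 8.61, and Lpl, lipoprotein lipase, 12.87, 13.24, 12.58, 13.44 and 12.49 against 9.72 to 10.22 (2.97, SE 0.18, adjusted p = 8.7e-07).

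Of 25 genes of fatty acid oxidation and ketogenesis 3 rose (5 without adenoma 4, 6 without adenomas 2 and 4) and 1 fell, with a median of 0.09. Pdk4, which blocks pyruvate oxidation, rose by 2.26 (SE 0.28, adjusted p = 2.0e-04). Of 20 cholesterol synthesis genes 3 rose and 3 fell, with a median of 0.14. The 3 rises were 0 without liver 2, 6 without adenoma 5, and 1 without any 1 of liver 1, liver 4, adenoma 1 and adenoma 2 or without both adenomas 2 and 4. Of 23 bile acid genes 10 fell and 1, Cyp7a1, rose (43.5% and 4.3%), with a median of -0.54. Cyp8b1, which makes cholic acid, fell by 2.87 (SE 0.59, adjusted p = 0.0049) and was lowest in adenoma 4, at 6.67 against 9.48 to 10.64 in the other adenomas. Slc10a1, the uptake transporter for bile acids, fell by 2.85 (SE 0.52, adjusted p = 0.0023) and was lowest in adenoma 5, at 8.20 against 10.55 to 11.92.

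Among 20 glycolysis genes 6 rose and 3 fell (1 without liver 2 or without liver 3), with a median of 0.04. Pkm and Aldoa, isoforms that fetal liver and muscle use in place of adult liver forms, rose by 1.72 (SE 0.17, adjusted p = 4.0e-05) and 1.62 (SE 0.22, adjusted p = 3.1e-04). The adult liver counterpart of Pkm did not pass the test (0.25, adjusted p = 0.47). Of 11 gluconeogenesis genes, 2 rose and 4 fell (median -0.13), and the 4 were 2 without any 1 of liver 1 to 5 and adenomas 2 and 5. Nuclear genes of the mitochondrial respiratory chain rose in 1 and fell in 9 of 32, with a median of -0.15, and the 9 were 5 without liver 2 and 4 without liver 5. Cytosolic ribosomal protein genes rose in 6 and fell in 1 of 22, with a median of 0.11. The 1 fall was 0 with the mean of a gene's probe sets and without adenomas 2 and 4.

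Hamp, hepcidin, is made by hepatocytes in answer to iron and inflammation. It read 6.19, 6.48, 9.69, 8.32 and 7.92 in adenomas and 13.27, 12.98, 12.89, 12.18 and 13.16 in liver, a fall of 5.18 (SE 0.55, adjusted p = 5.7e-05). Tfr2, an iron sensor that acts on Hamp, fell by 0.88 (SE 0.13, adjusted p = 6.3e-04), and Smad7, an inhibitor of the same BMP pathway and one of its targets, by 0.55 (SE 0.10, adjusted p = 0.0030). Genes of this pathway did not move together. Another inhibitor gene fell (-0.91, adjusted p = 0.030), but a co-receptor gene rose (0.67, adjusted p = 0.027). Another target gene differed by -0.03 (adjusted p = 0.94), and ligand and receptor genes on the list did not pass the test. Of 18 iron genes, 3 rose and 5 fell, with a median of -0.17. The 3 rises were 1 without any 1 of liver 1, liver 2, liver 4 and adenoma 5, or without adenomas 2 and 4.

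Acute phase genes fell in 7 and rose in 2 of 29 (median -0.18), and the 2 rises were 1 without any 1 of liver 1, 2, 4 and 5 and adenomas 1, 3 and 4. Crp, C-reactive protein, fell by 1.67 (SE 0.23, adjusted p = 3.6e-04), while Lcn2, lipocalin 2, rose by 3.60 (SE 0.66, adjusted p = 0.0025). Lcn2 read 9.65, 10.37, 11.62, 12.91 and 11.56 in adenomas and 6.78, 7.47, 9.90, 6.85 and 7.10 in liver, where liver 3 overlapped adenoma 1. Of 16 complement genes, 7 fell and none rose (43.8%), with a median of -0.38. C9, a component of the membrane attack complex, read 10.97, 6.47, 10.89, 7.43 and 7.55 against 12.43 to 12.76 in liver and fell by 3.92 (SE 0.77, adjusted p = 0.0038), with C8a (-2.89) and C8b (-2.27) beside it.

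**Figure D4:**
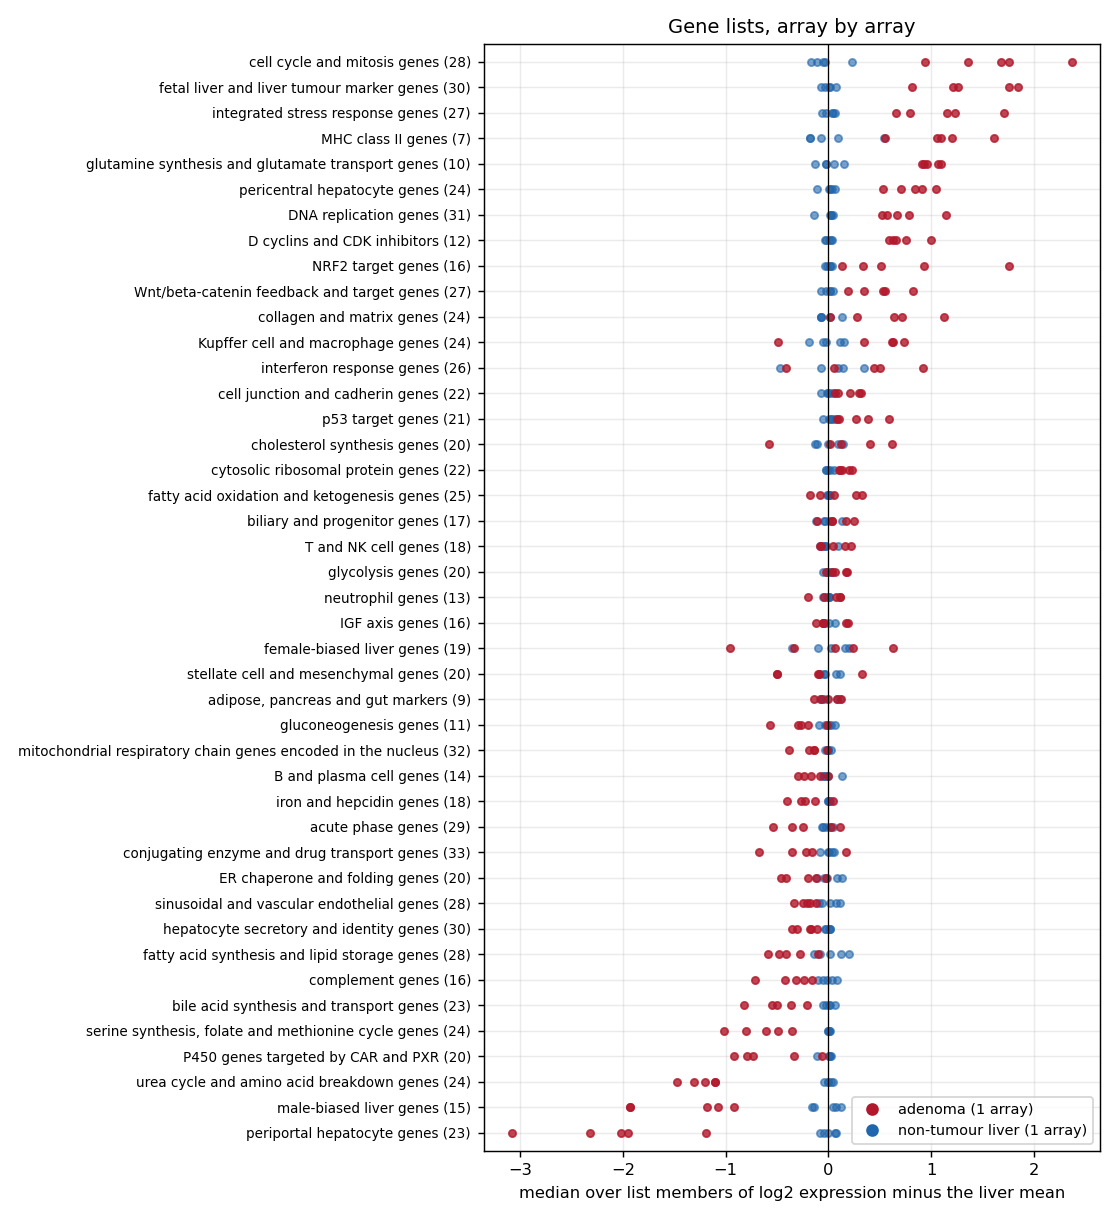
For each of 43 gene lists and each array, the median over the list's members of the level minus the mean of the liver arrays (log2), with the number of measured genes in parentheses. Cell cycle genes stand at 0.94 to 2.38 in adenomas and are the highest list in adenomas 1, 2 and 3, periportal genes stand at -3.08 to -1.19 and are the lowest list in all adenomas but adenoma 4, and liver arrays lie near 0.

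Transcripts of other cell types also differed, and in bulk tissue fewer cells of a type and less RNA per cell cannot be told apart. Their part in the results above was not tested. Of 24 macrophage genes, 5 rose and 6 fell, with a median of 0.46. The genes that fell are mostly those of Kupffer cells, the resident liver macrophages. The scavenger receptor gene Cd163 read 5.01, 4.62, 6.22, 6.19 and 5.27 against 7.65 to 8.73 in liver, a fall of 2.87 (SE 0.31, adjusted p = 6.7e-05). Timd4 and Clec4f, Kupffer cell markers, fell by 2.36 and 1.70 (adjusted p = 9.6e-06 and 8.8e-05), each without overlap.

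The general macrophage and monocyte genes Cd68 and Cd14 rose by 1.66 (SE 0.40, adjusted p = 0.012) and 1.86 (SE 0.41, adjusted p = 0.0075). Such genes did not move together. Of the macrophage list 13 genes did not pass the test, other general macrophage genes among them, and a monocyte gene was among those that fell. Cd68 was highest in adenoma 4, at 10.57 against 7.83 to 8.65 in the other adenomas and 6.85 to 7.61 in liver. The count of macrophage rises was 11 without adenoma 2, and 12 without adenomas 2 and 4. MHC class II genes, which antigen-presenting cells use, rose in 5 of 7 (71.4%), with H2-Ab1 up by 1.67 (SE 0.25, adjusted p = 5.9e-04). Of 26 interferon response genes 7 rose and 1 fell (median 0.26), with Ifit2 up by 2.14 (SE 0.17, adjusted p = 6.1e-06), and 11 rose without adenomas 2 and 4. Of 18 T and NK cell genes 1 rose, of 14 B and plasma cell genes 1 fell, and of 13 neutrophil genes 0 passed limma's adjusted test (2 with an unadjusted p under 0.05).

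Endothelial genes moved in both directions. Of 28 endothelial genes, 5 rose and 10 fell (17.9% and 35.7%), with a median of -0.22. Clec4g, a lectin gene of sinusoidal endothelium, fell by 1.61 (SE 0.13, adjusted p = 7.3e-06). Wnt2 and Rspo3, which encode the Wnt ligand and the R-spondin that liver endothelium supplies around the central vein, fell by 1.22 (SE 0.16, adjusted p = 2.6e-04) and 1.94 (SE 0.22, adjusted p = 1.1e-04). Wnt2 read 5.53, 4.77, 5.16, 5.24 and 5.61 in adenomas and 6.29 to 6.79 in liver.

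Cd34, which marks capillary-like endothelium and is low in normal sinusoids, rose by 3.01 (SE 0.30, adjusted p = 3.7e-05), from 4.77 to 5.47 in liver to 7.10, 9.01, 7.42, 8.08 and 8.22. Aplnr, the apelin receptor gene, rose by 2.67 (SE 0.45, adjusted p = 0.0015) and Pecam1, a general endothelial gene, by 1.12 (SE 0.19, adjusted p = 0.0017). Adenoma 1 was the lowest tumour for all 3 of these genes and adenoma 2 the highest. Of the endothelial list 13 genes did not pass the test, widely used sinusoidal markers and other vascular markers among them.

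Of 20 stellate cell genes 8 fell and 2 rose, with a median of -0.06. These shares are 40% and 10%, against 10.7% and 12.4% of all genes, so rises were no more frequent than elsewhere. Colec10 and Lrat, genes of quiescent stellate cells, fell by 3.01 and 1.73. Acta2 and Vim, which rise in activated ones, rose by 2.04 and 1.49, but 10 genes did not pass the test, others of activated cells among them. Of 24 collagen and matrix genes, 8 rose and none fell (33.3%), with a median of 0.48. The basement membrane collagen genes Col4a1 and Col4a2 rose by 2.53 (SE 0.17, adjusted p = 1.8e-06) and 2.41 (SE 0.17, adjusted p = 2.2e-06). Fibrillar Col1a2 read 9.11, 10.41, 11.03, 11.81 and 9.76 against 8.05 to 8.79 and rose by 2.08 (SE 0.41, adjusted p = 0.0038).

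Biliary and progenitor genes rose in 4 of 17 and none fell (median 0.06). They were Krt8 (1.44) and Krt18 (1.30), keratins that hepatocytes also make, Sox4 (2.03) and Cd24a (2.33). Among 9 markers of fat, pancreas and gut, Vil1, a microvillus gene, rose by 3.37 (SE 0.41, adjusted p = 1.5e-04), Fabp4, also made by vessels, by 1.59 and Cela1 by 1.45, while the fat cell marker Adipoq lay below the lower quartile of all probe sets (4.54) on every array. Of 22 junction and cadherin genes 5 rose and 1 fell (median 0.21). The one that fell was Gjb2, a gap junction gene of hepatocytes (-0.72, SE 0.16, adjusted p = 0.0082). The 5 rises were 3 without any 1 of liver 1, 2, 3 and 5 or adenoma 3. They were also 3 with quantile normalization or the replicate number as a block, and 1 with all 20 arrays in the fit.

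The adenomas varied more among themselves than the liver samples did. The median SD of a gene was 0.229 in adenomas and 0.139 in liver, 74.4% of genes had the larger SD in adenomas, and 371 genes had an SD above 1 in adenomas against 9 in liver. Sult2a2 varied most (SD 3.51): it read 5.54, 12.62, 7.21, 13.54 and 7.99 in adenomas and 4.29 to 4.57 in liver. All adenomas were above liver, and adenomas 2 and 4 far above the other tumours. The rise was 4.93 (SE 1.28, adjusted p = 0.018), and 2.46 without adenomas 2 and 4 (adjusted p = 0.0017).

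Meg3, an imprinted noncoding RNA, read 5.62, 13.25, 7.41, 10.62 and 6.85 against 8.56 to 9.98 in liver. Adenomas 2 and 4 lay above all liver samples and adenomas 1, 3 and 5 below them. The difference of -0.64 (SE 1.16, adjusted p = 0.74) was -2.76 without adenomas 2 and 4 (adjusted p = 7.3e-04). Igfbp2, which binds insulin-like growth factors, had the same arrangement, with 9.06, 13.33, 8.31, 10.93 and 5.79 against 10.23 to 10.82. Its difference was -1.04 (SE 1.04, adjusted p = 0.53), and -2.80 without those tumours (adjusted p = 0.0048). For Meg3 and Igfbp2 alike, the second p-value was computed after the highest tumours were left out, so it is not a test.

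Other genes ran the opposite way. Cyp4a12a, a male-biased P450 gene of fatty acid hydroxylation, read 12.41, 7.45, 12.04, 6.22 and 11.36 against 11.73 to 12.07, so that adenomas 2 and 4 were low and the other tumours near liver (-2.03, SE 1.04, adjusted p = 0.20, and 0.01 without those tumours). Ubd, a ubiquitin-like protein gene induced by interferon gamma, read 12.56, 6.61, 12.97, 8.28 and 10.12 against 6.14 to 6.69 and rose by 3.71 (SE 1.00, adjusted p = 0.021), with adenoma 2 inside the liver range. Without adenomas 2 and 4 the Ubd difference was 5.49.

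Other genes stood above liver in 1 to 3 tumours. Sult1e1, oestrogen sulfotransferase, reached 12.48 in adenoma 4, while the other adenomas read 4.35 to 6.79 and liver 5.35 to 6.13. Mgst2, a microsomal glutathione transferase gene, read 9.54, 5.62, 7.34, 5.52 and 13.00 against 5.30 to 5.93, and Anxa13, an annexin gene, 7.97, 4.22, 9.95, 4.27 and 3.94 against 4.77 to 5.27. None of these 3 passed the test (adjusted p = 0.67, 0.15 and 0.53).

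**Figure D5:**
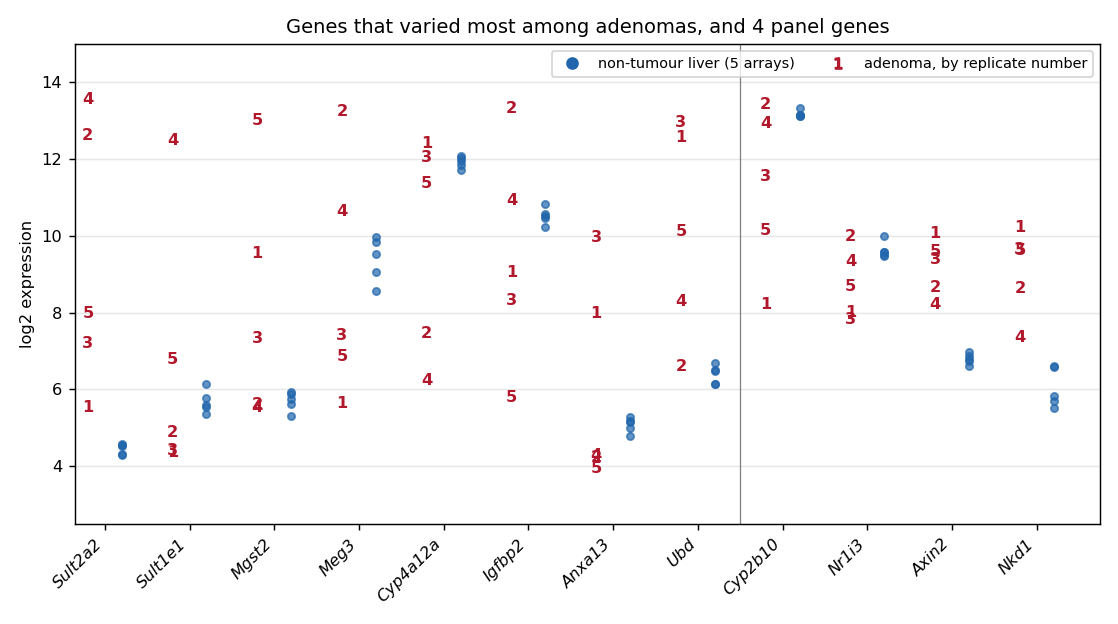
Level (log2) of the 8 genes with the largest SD among adenomas, left of the grey line, and of Cyp2b10, Nr1i3, Axin2 and Nkd1, right of it, with adenomas shown by their number and liver arrays as points. Adenomas 2 and 4 stand highest for Sult2a2, Meg3, Igfbp2 and Cyp2b10 and lowest for Cyp4a12a and Axin2.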

How the data were processed

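Total RNA of 10 samples was measured on Affymetrix arrays, 1 array each. The deposited values are log2 levels of probe sets, and the submitters' processing notes name RMA, which corrects background, aligns the arrays and summarises probes, so a shift of all genes would be removed and folds of dim genes shrink. Precision is set by the number of arrays. Of 45037 probe sets, 34945 had 1 gene symbol (34741 of them matched by Entrez number to RefSeq, GRCm38.p6, used for names and promoters), 932 had several and 9160 none. Each of 18193 genes was read through its brightest probe set (highest mean of the 10 arrays), and a probe set named _x_at was used only where the gene had no other. Genes without a probe set of 1 symbol, such as H19 and Gls2, were not analysed here.

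The 10 arrays were fitted with lmFit and eBayes of limma 3.58.1 under R 4.3.3 (two-sided, 8 residual and 4.06 prior degrees of freedom), and all adjusted p-values are Benjamini-Hochberg values over 34945 probe sets with a threshold of 0.05. The fit was tested on simulated data. The adenomas, the 43 gene lists and the tests were chosen with earlier results of these data known. Lists were described by counts and medians, without a list test. The rule for named genes took the 15 largest rises and falls past the test without overlap, up to 3 rising and 3 falling members of each list, a panel for Wnt, zonation, drug response and proliferation, and the 8 largest SDs among adenomas. Of 173 genes named, 32 fell outside the rule and were chosen after their values were seen. Each result was recomputed with a dim-signal filter, the mean of a gene's probe sets, adjustment over genes, trend and robust settings, median centring, quantile normalization, array weights, the replicate number as a block, all 20 arrays in the fit, a 2-fold rule, each array left out, and adenomas 2 and 4 left out. Python 3.11.15, pandas 2.3.3 and matplotlib 3.10.9 made tables and plots.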

Additional observations from a re-analysis of the deposited data

Results flagged for a closer look

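In 346 sets of 5 arrays (the genes named, in each group), 28 held 1 array far from the other 4, at a gap that chance gives in about 1 in 20 sets. No cause was tested.

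Adenoma 2 stood low for the plasminogen activator gene Plat (7.72, others 10.34 to 11.16), the histidine pathway gene Ftcd (6.69, others 8.23 to 8.83), the folate gene Mthfd1l (6.27, others 7.49 to 7.96) and the elastase gene Cela1 (10.61, others 11.13 to 11.33). Adenoma 4 stood high for the asparaginase gene Aspg (8.05, others 5.78 to 6.21) and the urea cycle gene Ass1 (8.12, others 6.43 to 6.83), and low for Cyp2e1 (14.24, others 14.55 to 14.65) and Kmo (9.78, others 10.16 to 10.27). Adenoma 5 stood high for Igf2 (9.91, others 5.98 to 7.02) and low for Srebf1 (9.65, others 10.14 to 10.32) and Hspa5 (12.92, others 13.37 to 13.48). Adenoma 1 was low for Ifit2 (8.34, others 8.84 to 8.97), and adenoma 3 high for the transcription factor gene Sox4 (11.25, others 9.80 to 10.14).

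Among liver samples, liver 3 was apart most often. It was high for Lcn2 (9.90, others 6.78 to 7.47), Sox4 (8.79, others 7.99 to 8.15), Igf2 (7.16, others 5.98 to 6.32), Cyp2b10 (13.33, others 13.11 to 13.15), Aldh1l1 (13.59, others 13.37 to 13.43) and Mat1a (13.58, others 13.53 to 13.54), and low for Etnppl (10.11, others 10.70 to 10.85) and Mdm2 (8.80, others 9.06 to 9.12). Liver 2 was high for Crp (12.98, others 12.80 to 12.85) and Ctnnb1 (12.21, others 12.07 to 12.11), liver 4 for Cd34 (5.47, others 4.77 to 4.91) and liver 1 for Nr1i3 (9.997, others 9.48 to 9.57). Liver 5 was low for Rragd (5.62, others 5.94 to 6.04), Timd4 (5.91, others 6.50 to 6.68) and Psph (7.66, others 7.85 to 7.91).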

How the results depend on the processing

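The count of 4213 genes ran from 3236 (without liver 2) to 4427 (without adenoma 5) when 1 array was left out, and the 7147 probe sets past the test (20.5%) from 5404 to 7489. With the 2-fold rule the counts were 1137 genes and 1711 probe sets. The other alternatives, apart from the block below, gave 4030 to 4669 genes. Without adenomas 2 and 4, 4414 genes passed, and they held 3434 of the 4213. With quantile normalization 48.6% of called genes were higher in adenomas, against 53.7%. Centring and quantile normalization moved the median difference by 0.01 each.

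Adenomas and liver samples share replicate numbers. The deviations of same-numbered arrays correlated at -0.05 to -0.01, so no pairing by number was seen. Liver samples varied little, so such values cannot tell whether an adenoma and a liver sample share a mouse. With the replicate number as a block, 3559 genes and 5936 probe sets passed.

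Of 150 named genes past the test, 138 kept the call under every alternative run on them, 12 lost it under at least 1, and none changed sign. The adjusted p of Asns, Cyp2b9, Cyp7a1, Gpc3 and Lect2 passed 0.05 when single arrays were left out (values above). Fitting all 20 arrays ended the calls for Bhmt, Lect2, Mat1a, Oat, Smad7 and Tcf7l2, the trend and robust settings those for Asns, Cyp2b9, Gpc3 and Ubd, the mean of probe sets that for Apc, the block that for Cyp2b9 (adjusted p = 0.0501), and leaving out adenomas 2 and 4 those for Asns, Cyp2b9 and Gpc3; the causes were not tested. Genes not past the test changed sign as follows. Without adenomas 2 and 4, Alb gave 0.0047, Hspa5 -0.030, Cyp4a12a 0.010, Hnf4a -0.054 and Sult1e1 -0.50. Cyp1a2 gave -0.056 with array weights, Hnf4a -0.033 with the mean of probe sets and Alb 0.00 with quantile normalization. With 1 array left out, the ranges crossing 0 were -0.24 to 0.20 for Cyp1a2, -0.026 to 0.074 for Hnf4a, -0.17 to 0.0038 for Apoa1, -0.0045 to 0.0997 for Cyp2e1, -1.76 to 0.15 for Meg3 and -0.58 to 1.45 for Sult1e1.

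The number of arrays and the spread among adenomas limit these values. Genes such as Cyp2b10, Nr1i3 and Meg3 missed the threshold with a wide spread, which does not show that they did not differ. Differences can be compressed in dim probe sets near background and in the brightest ones.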
